A study of Homo sapiens with 24 samples.

Results

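HCC1395 cells received an inhibitor of EZH2, an inhibitor of AKT, both or neither, which allows a test of whether the response to both equals the responses to each put together. All genes passing a low-count filter were members, 18074 of 58735 entries in the count files, measured in 12 of the series' 24 libraries. The 4 groups of HCC1395, each with 3 libraries lettered A, B and C, were DMSO (solvent), 5 uM tazemetostat (EZH2i), 5 uM ipatasertib (AKTi) and both agents at those doses (EZH2i+AKTi). HCC1395 is an established line of triple-negative breast cancer, so the values describe 1 tumour's cells, and each agent was used at a single dose. The labels' timeline names another line and another assay, so the treatment time of these libraries is unclear. Nothing says that replicates were separate cultures, so the p-values cover no more than the spread among these libraries, which may be technical.

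EZH2 is the catalytic subunit of Polycomb repressive complex 2 (PRC2), which methylates lysine 27 of histone H3 and keeps developmental and lineage genes silent. AKT is the kinase downstream of phosphoinositide 3-kinase (PI3K). It holds the FOXO transcription factors out of the nucleus and drives growth, so its inhibition frees FOXO to switch on its targets.

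Expression is in CPM, counts scaled to library size with the trimmed mean of M-values (TMM). Non-additivity was measured on both scales that the term can mean. On the log2 scale the expected level under both agents is EZH2i times AKTi divided by DMSO, the multiplicative expectation, and the log2 of observed over expected is the interaction. On the CPM scale the expected level is EZH2i plus AKTi minus DMSO, the additive expectation, and observed minus expected is the departure. A gene was called at an adjusted p under 0.05. The 4 groups enter both measures, so a gene's single-agent changes and its interaction share libraries.

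Library totals ran from 33469927 to 51815656 counts. The basal keratin KRT14 stood at 424 CPM under DMSO, the hormone receptor genes ESR1 and PGR stayed under 1 CPM in every library, and ERBB2 stood at 44.5 under DMSO. The epithelial cadherin CDH1 also stayed under 1 CPM in every library while vimentin (VIM) stood at 1505 under DMSO, so a defining epithelial marker was nearly undetected. EPCAM, another epithelial marker, was at 1.73, 4.78, 1.38 and 4.82 CPM under DMSO, EZH2i, AKTi and both, and KRT8 at 31.99, 44.3, 94.05 and 122 CPM. All 6 T cell markers stayed under 1 CPM in every library, with CD3E and CD3G at 0. Of 6 B cell markers 4 stayed under 1 CPM, while CD22 was at 8.11 and CD79B at 4.27 CPM under DMSO. Of the fibroblast markers COL1A2 was at 721 and COL1A1 at 59.7 CPM under DMSO, and DCN and LUM stayed under 1 CPM. PDGFRA was at 2.29, 9.64, 4.24 and 19.2 CPM in the same order of groups. The 3 EZH2i+AKTi libraries differed from each other more than those of other groups. Their pairwise chi-square per degree of freedom was 10.9 to 34.6, against 3.73 to 6.25 within the other groups. Ribosomal protein genes took 8.31, 9.79 and 7.64% of counts in replicates A, B and C of EZH2i+AKTi. The tests use 1 estimate of the spread per gene for all 4 groups, so the p-values may understate the spread of EZH2i+AKTi. Mitochondrial genes, all symbols starting with MT-, took 3.85% ± 0.08 (SD, n = 3) with DMSO and 4.74% ± 0.39 with EZH2i. They took 5.55% ± 0.19 with AKTi and 6.20% ± 0.09 with both agents. Results without 13 of these genes, those of the gene list used below, were computed too.

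Most genes lay near the multiplicative expectation: 86% were within 0.5 on the log2 scale, and the median interaction was -0.04. The interaction was called for 286 of 18074 genes (1.58%), 95 above the expectation (0.526%) and 191 below it (1.06%). An unadjusted p under 0.05 was reached by 2394 genes (13.2%). Only 4 called genes lay above their expectation by a ratio of at least 2, and 16 lay below by as much. The additive expectation was missed by 540 genes (2.99%), of which 247 (1.37%) lay above and 293 (1.62%) below. For scale, each agent alone changed far more genes, EZH2i 33.7% and AKTi 49.7%. The plot of observed against expected levels shows the called genes as thin bands along both edges of the cloud.

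**Figure D1:**
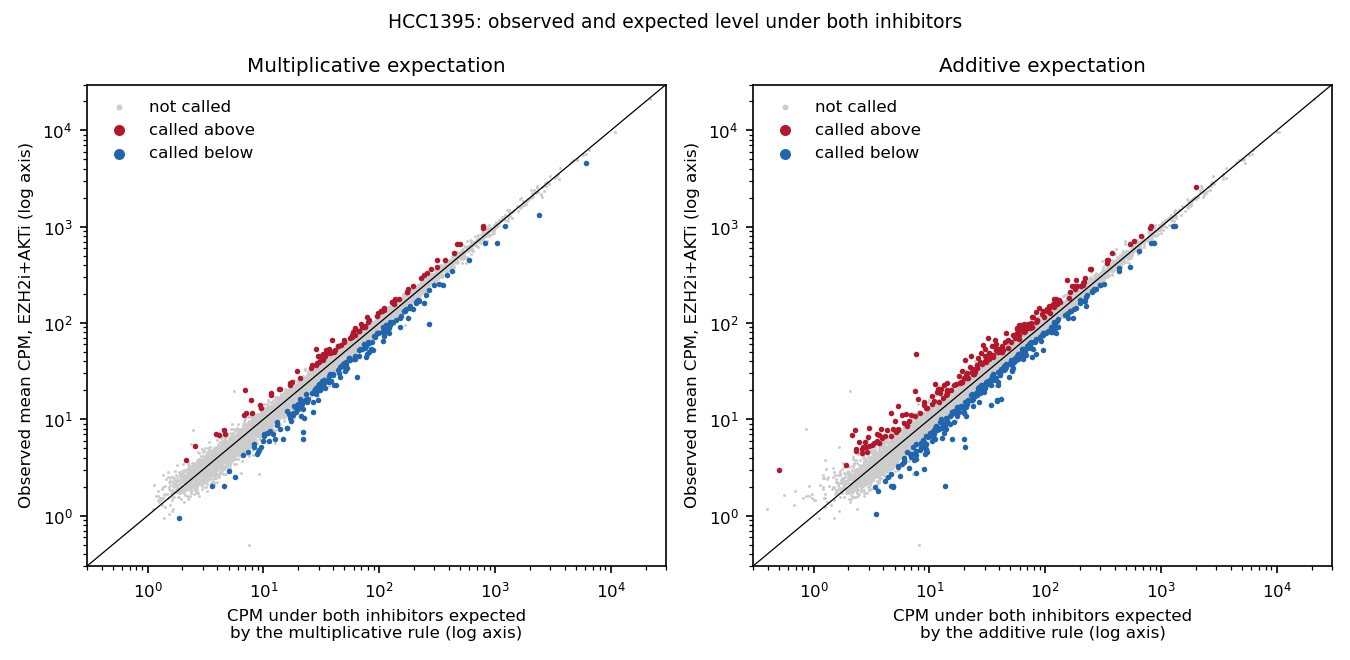
Mean level under EZH2i+AKTi against the level expected by the multiplicative rule (left) and the additive rule (right), both in CPM on log axes, for genes averaging 2 CPM or more whose expectation is positive. Each point is a gene, red where called above and blue where called below the expectation, and the line marks equality.

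The balance of calls above and below moved with the scaling, the filter, single libraries and a switch to DESeq2. With RLE size factors the log2 calls were 146 above and 125 below, without a low-count filter 219 and 203, and with AKTi replicate C as the TMM reference 248 and 110. DESeq2 gave 280 and 197, and it changes the scaling as well as the test, since it uses its own size factors. On the CPM scale RLE gave 351 above and 221 below, the AKTi C reference 487 and 196, and no filter 433 and 304. Without EZH2i+AKTi replicate B the log2 calls were 485 above and 145 below, without EZH2i+AKTi replicate C 366 and 656, and without EZH2i replicate A 166 and 64. The median interaction of all genes was -0.04 with 57.8% negative, and turned to 0.0044 with RLE (49.2% negative) and 0.03 with the AKTi C reference (44.3%). The medians of 8 of the 25 gene lists described here changed sign between these scalings. No gene called both as reported and under an alternative changed direction. Genes called in the same direction as reported and under all 19 alternatives of the log2 scale numbered 91, of which 32 lay above and 59 below. On the CPM scale 206 genes were called under all 20 alternatives, 99 above and 107 below. These genes are called stable here, and this set was formed after the data were seen.

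**Figure D2:**
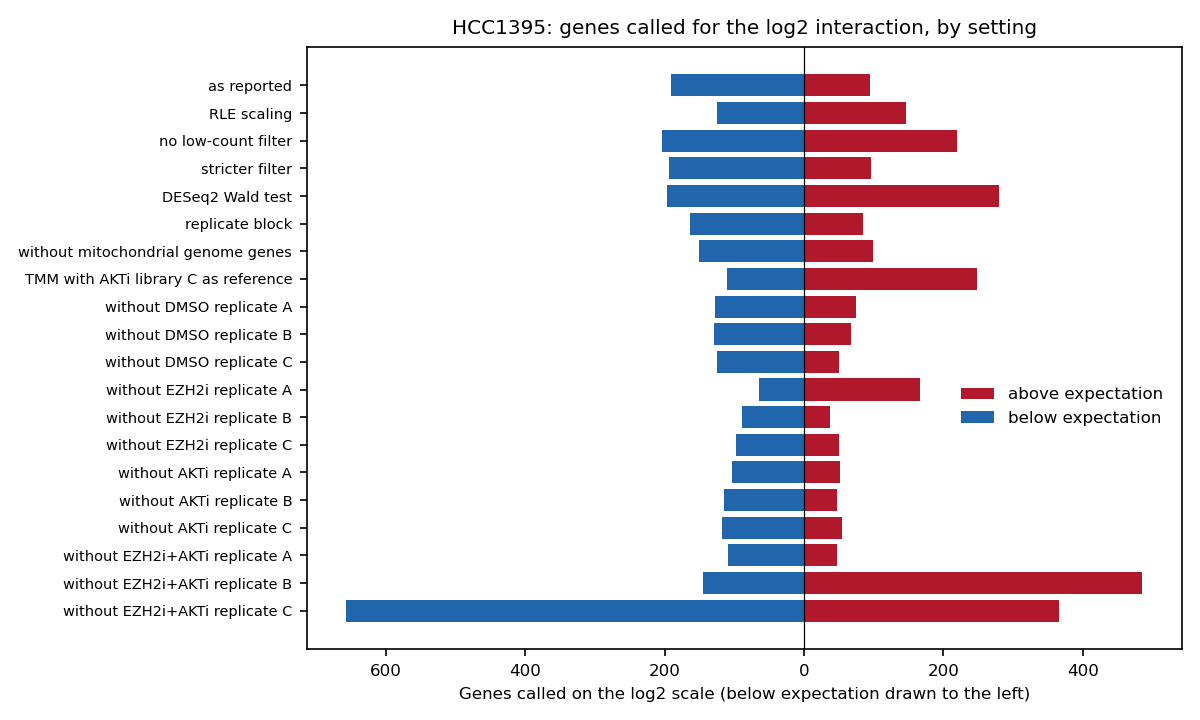
Number of genes called for the log2 interaction as reported (top bar) and under each alternative setting, drawn to the right for genes above and to the left for genes below the multiplicative expectation. The reported fit has 95 above and 191 below, and the side with more calls changes with the scaling and with the EZH2i+AKTi library left out.

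The scale decided much of what counted as non-additive. On both scales 76 genes were called above and 134 below. On the log2 scale alone 19 were above and 56 below, and on the CPM scale alone 170 and 159. A single gene, ALDH1A3, was called in opposite directions, below the product and above the sum. Of the 191 genes below the multiplicative expectation, 45 still reached a level above both single-agent levels, 87 lay between them and 59 lay below both. Of the 95 above it, 44 lay above both, 44 between and 7 below both. Among all genes tested 28.1% lay above both, 43.5% between and 28.5% below both.

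Called genes were counted by the direction of their single-agent responses, as a description without a test. DMSO, EZH2i and AKTi libraries enter both the classes and the interaction, so that a low DMSO value alone puts a gene nearer to the class higher under each agent and lowers its interaction, and the reverse holds for a high one. Of 1341 genes that were higher under each agent alone, 96 lay below the multiplicative expectation and 1 above, while 77 lay above the additive expectation and 50 below. Of 1181 genes that were lower under each agent, 27 lay above the multiplicative expectation and 2 below, and 74 lay above the additive expectation and 0 below. The scales are also tied by arithmetic. A gene exactly on the product lies above the sum where both agents move it the same way. It lies below the sum where they move it in opposite ways, so the CPM counts by class follow partly from this. Of 537 genes raised by EZH2i and lowered by AKTi, 104 fell short of the sum and 3 exceeded it, with 23 below and 5 above the product. For 633 genes lowered by EZH2i and raised by AKTi, 24 lay below and 14 above the sum, and 3 below and 22 above the product. Of 6700 genes called under neither agent, 4 lay above and 3 below on the log2 scale. Of genes averaging at least 2 CPM, 2.25% were called on that scale. The shares of all genes set beside the gene lists below are matched neither for these classes nor for level.

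BMF, a BH3-only gene of the BCL2 family whose product promotes apoptosis, was raised by each agent and lay far below the product of those rises, yet on their sum. Its gene lies on chromosome 15 from 40087890 to 40108892 (hg38). BMF was at 11.6, 11.03 and 10.7 CPM with DMSO, 47.9, 46.2 and 46.7 with EZH2i, 65.00, 60.4 and 64.8 with AKTi and 101, 92.2 and 101 with both. The groups did not overlap, and the combination was the highest. The multiplicative expectation was 267 CPM and the additive expectation 99.2, against an observed mean of 98.1 ± 5.17 CPM (SD, n = 3). The log2 interaction was -1.45 ± 0.08 (SE, adjusted p = 2.26e-09), and the departure was -1.09 ± 3.35 CPM (adjusted p = 0.924), with a sign that turned to 4.22 CPM without EZH2i+AKTi replicate B, 1.36 without EZH2i replicate A and 0.464 with the AKTi C reference. BMF was the only call among 15 tested BCL2 family genes on the log2 scale, whose median interaction was 0.04. In RNA from bulk cells, fewer cells expressing a gene and less RNA per cell cannot be told apart.

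TXNIP and ALDH1A3 had the same ordering of groups as BMF. TXNIP encodes the thioredoxin-interacting protein, an arrestin that limits glucose uptake, and is a FOXO-responsive gene. It was at 44.3, 43.4 and 41.2 CPM with DMSO, 76.7, 76.3 and 78.1 with EZH2i, 134, 141 and 135 with AKTi and 163, 152 and 165 with both. All groups were separate, and the combination exceeded each single agent. Against a multiplicative expectation of 245 CPM the interaction was -0.61 ± 0.07 (adjusted p = 3.24e-05), while the additive expectation was 171 and the departure -10.5 ± 5.34 CPM (adjusted p = 0.361), running from -12.8 to -1.79 CPM as single libraries were left out. ALDH1A3 encodes a retinaldehyde dehydrogenase used as a marker of mammary progenitors. It was at 41.7, 44.1 and 41.2 CPM with DMSO, 95.1, 95.9 and 98.3 with EZH2i, 158, 145 and 166 with AKTi and 257, 231 and 257 with both. Its combination level lay between the expectations, 210.5 CPM by the sum and 356 by the product. The interaction was -0.52 ± 0.08 (adjusted p = 0.00118) and the departure 37.7 ± 8.36 CPM (adjusted p = 0.0144). The departure of ALDH1A3 was no longer called without 1 of AKTi B or EZH2i+AKTi A (adjusted p = 0.0639 to 0.0996).

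Among 37 tested FOXO targets and PI3K feedback genes, 5 lay below the multiplicative expectation and 0 above, against 1.06% and 0.526% of all genes. The called genes were TXNIP, KLHL24, CCNG2, YPEL2 and PIK3R1. The means of TXNIP, KLHL24, CCNG2 and YPEL2 were above DMSO under each agent alone. Of the 1341 genes called higher under each agent, 96 lay below the product. The list was not compared with genes of like single-agent response. The list's median interaction was -0.10 against -0.04 over all genes. With RLE it was -0.06 (0.0044 over all genes), and with the AKTi C reference -0.03 (0.03). On the CPM scale 3 lay below the sum (SESN3, CCNG2 and PIK3R1) and 2 above (IGF1R and YPEL3), and only PIK3R1 was stable there. KLHL24, an adaptor of ubiquitin ligases, was at 24.02, 29.9, 112 and 107 CPM under DMSO, EZH2i, AKTi and both (means of 3), and the combination libraries overlapped those of AKTi. CCNG2, an atypical cyclin induced in arrested cells, was at 104, 131, 201 and 197 CPM, and YPEL2 at 5.13, 7.43, 20.9 and 20.3 CPM, in that order of groups and again with overlap between AKTi and both. The interactions were -0.38, -0.36 and -0.59. PIK3R1, the p85 alpha regulatory subunit of PI3K, took another course. It was at 43.1, 43.8 and 39.9 CPM with DMSO, 48.6, 52.5 and 52.3 with EZH2i, 41.01, 44.4 and 44.7 with AKTi and 33.9, 28.4 and 39.3 with both. Every combination library lay below all 6 single-agent libraries, the expectations were 52.5 CPM by the product and 52.2 by the sum, and the interaction was -0.64 ± 0.12 (adjusted p = 0.0095). On the log2 scale TXNIP and PIK3R1 were stable. The other calls were lost for CCNG2 without EZH2i A (adjusted p = 0.0903), YPEL2 without any 1 library except DMSO B, AKTi B, AKTi C, EZH2i+AKTi B and EZH2i+AKTi C (adjusted p = 0.0527 to 0.0695) and KLHL24 without any 1 library except AKTi C and EZH2i+AKTi C and with RLE scaling and with the AKTi C reference (adjusted p = 0.0528 to 0.128). Without EZH2i+AKTi replicate B the interaction of KLHL24 was -0.24.

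Other FOXO targets raised by AKTi did not pass the test of the interaction. FBXO32, the muscle-atrophy ubiquitin ligase atrogin-1, was at 272, 192, 1009 and 821 CPM in the order DMSO, EZH2i, AKTi and both, with an interaction of 0.20 ± 0.07 (95% interval 0.07 to 0.34, adjusted p = 0.148). PIK3IP1, an inhibitor of PI3K, was at 9.67, 12.2, 60.6 and 70.7 CPM, with -0.12 ± 0.10 (interval -0.33 to 0.09). FOXO1 itself was at 8.76, 17.7, 15.3 and 22.1 CPM, with -0.49 ± 0.14 (interval -0.79 to -0.18, adjusted p = 0.108). The 4 groups of each of these genes did not overlap. EZH2 was at 133, 125, 74.97 and 72.6 CPM, with an interaction of 0.04 ± 0.07 (interval -0.10 to 0.17).

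**Figure D3:**
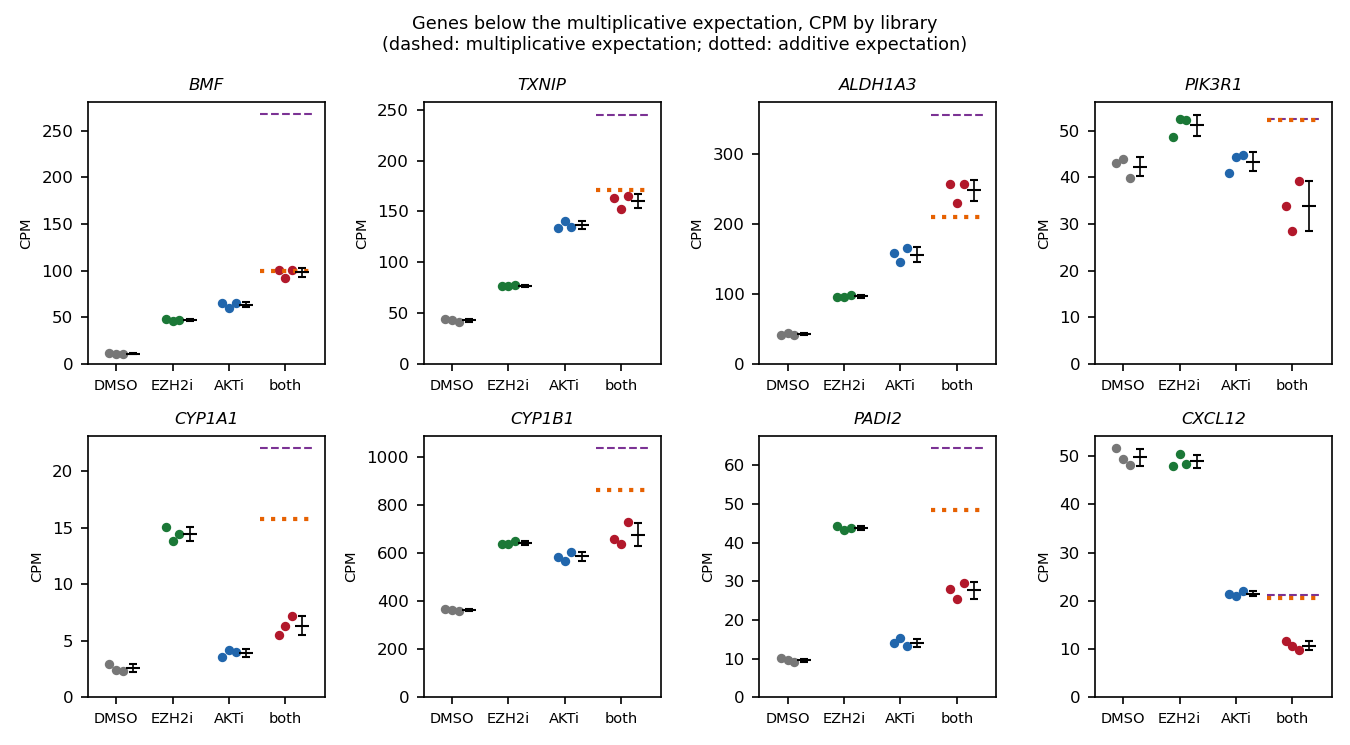
CPM in each library (points) with mean and SD of 3 (black) for 8 genes below the multiplicative expectation, by treatment. The dashed line is the multiplicative and the dotted line the additive expectation for both agents: BMF and TXNIP sit near the dotted line, ALDH1A3 between the lines, and the other genes below both.

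CYP1A1, CYP1B1 and AHRR, targets of the aryl hydrocarbon receptor that encode cytochromes P450 and the receptor's repressor, lay below the multiplicative expectation, and this trio was picked after its values were seen. CYP1A1 had the lowest interaction among genes of the naming rule. It was at 2.98, 2.39 and 2.33 CPM with DMSO, 15.04, 13.8 and 14.4 with EZH2i, 3.53, 4.22 and 4.03 with AKTi and 5.51, 6.32 and 7.22 with both. The EZH2i libraries were the highest and the combination fell between the single agents, with no overlap between groups. The interaction was -1.80 ± 0.17 (adjusted p = 4.03e-06) and the departure -9.45 ± 0.854 CPM (adjusted p = 6.93e-07). CYP1B1, raised by both agents, was at 369, 362 and 360.0 CPM with DMSO, 639, 637 and 651 with EZH2i, 585, 569 and 607 with AKTi and 659, 641 and 732 with both. The combination libraries overlapped those of EZH2i and reached at most 732 CPM, against 866 CPM by the sum and 1037 by the product. Its interaction was -0.61 ± 0.07 (adjusted p = 4.48e-05). AHRR was at 7.98, 13.6, 17.99 and 20.4 CPM in group order, with an interaction of -0.59 ± 0.12 (adjusted p = 0.0102), not called without EZH2i A (adjusted p = 0.0683).

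PADI2, FAM19A5 and TSPAN18 were raised by EZH2i, and their levels under both agents lay between those of the single agents. PADI2, a peptidylarginine deiminase that converts arginine to citrulline, was at 10.1, 9.57 and 9.27 CPM with DMSO, 44.3, 43.2 and 43.8 with EZH2i, 14.05, 15.3 and 13.2 with AKTi and 28.1, 25.3 and 29.5 with both. Each group stood apart, and the combination was nearer to AKTi than to EZH2i. The interaction was -1.22 ± 0.10 (adjusted p = 9.46e-07) and the departure -20.7 ± 1.80 CPM (adjusted p = 4.78e-07). TSPAN18, a tetraspanin, was raised by EZH2i and lowered by AKTi, at 4.07, 4.16 and 4.39 CPM with DMSO, 21.03, 20.9 and 22.4 with EZH2i, 1.92, 2.68 and 2.86 with AKTi and 6.10, 6.12 and 6.70 with both. Its additive expectation of 19.7 CPM and multiplicative expectation of 12.7 both exceeded every combination library. The interaction was -1.01 ± 0.16 (adjusted p = 0.00166) and the departure -13.4 ± 1.04 CPM (adjusted p = 9.3e-08). FAM19A5, a secreted chemokine-like protein, was at 1.41, 10.7, 1.95 and 6.29 CPM in group order with an interaction of -1.23 ± 0.20.

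The other called genes with the lowest interactions were PELI2, ALKAL2, CSDC2, ST3GAL5 and KRT15. PELI2, a Pellino ubiquitin ligase, rose from 0.528, 0.702 and 0.137 CPM under DMSO to 7.08, 7.08 and 8.10 under both. That was close to the sum, 6.64 CPM, and far from the product, 21.9, with an interaction of -1.56 ± 0.33 that rests on under 1 CPM in each DMSO library. ALKAL2, a ligand of the ALK receptor kinase, was at 4.60, 12.4, 9.91 and 11.8 CPM (interaction -1.17), ST3GAL5, the GM3 ganglioside synthase, at 1.65, 3.36, 10.9 and 10.4 CPM (-1.09), and KRT15, a basal keratin, at 2.09, 5.44, 3.36 and 4.36 CPM (-1.02). CSDC2, an RNA-binding protein, was at 1.53, 3.05, 2.83 and 2.54 CPM (-1.15). The combination libraries overlapped those of AKTi for ST3GAL5 and CSDC2, those of EZH2i for KRT15, and those of both single agents for ALKAL2. The smallest of these 10 effects was -1.01 and the lowest adjusted p was 2.26e-09, for BMF.

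CXCL12, COL1A1 and GREM1, which encode secreted proteins, were further genes called below the multiplicative expectation. CXCL12, the chemokine ligand of CXCR4, was at 51.6, 49.4 and 48.1 CPM with DMSO, 47.9, 50.3 and 48.4 with EZH2i, 21.5, 20.98 and 22.02 with AKTi and 11.6, 10.7 and 9.86 with both. The EZH2i libraries overlapped those of DMSO, AKTi lowered it, and every combination library lay below every AKTi library. The interaction was -0.97 ± 0.09 (adjusted p = 2.84e-06), with a departure of -9.89 ± 2.17 CPM (adjusted p = 0.0132) that was not called without 1 of DMSO C, EZH2i A or EZH2i B (adjusted p = 0.0657 to 0.0907). COL1A1, the alpha 1 chain of type I collagen, was at 59.2, 56.8 and 63.04 CPM with DMSO, 87.3, 88.2 and 93.1 with EZH2i, 52.6, 51.6 and 53.6 with AKTi and 51.6, 43.2 and 47.3 with both. EZH2i raised it, while under both it did not differ past the test from AKTi alone (adjusted p = 0.0623), with an interaction of -0.74 ± 0.09 (adjusted p = 5.62e-05). GREM1, a secreted antagonist of bone morphogenetic proteins, was at 38.3, 39.6 and 38.9 CPM with DMSO, 101, 101 and 101 with EZH2i, 34.3, 34.9 and 33.9 with AKTi and 51.5, 51.8 and 54.4 with both. Its 3 combination libraries lay between the single agents, for an interaction of -0.76 ± 0.07 (adjusted p = 2.68e-06) and a departure of -43.8 ± 2.93 CPM. All 3 were stable on the log2 scale. CXCL12 was chosen after its values were seen.

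Among 34 tested matrix and matricellular genes, 1 was called above the multiplicative expectation and 1, COL1A1, below, and the list's median was -0.05 (0.02 with the AKTi C reference). GREM1 and the Wnt receptor FZD7 were the only ones among 44 WNT and BMP genes, both below. FZD7 was at 106, 186, 217 and 315 CPM in group order, near the sum (297 CPM), with an interaction of -0.28 ± 0.07 (adjusted p = 0.0471). Its call was lost in 16 of 19 alternatives, namely without any 1 library except EZH2i+AKTi C and with RLE scaling, without a low-count filter, with DESeq2, without mitochondrial genes and with the AKTi C reference (adjusted p = 0.0655 to 0.344). Its interaction was -0.18 without EZH2i A and -0.16 without EZH2i+AKTi B. CTSO, a cysteine cathepsin, was the only log2 call among the 42 listed lysosome and autophagy genes. It was at 17.4, 20.5, 30.7 and 25.9 CPM, with an interaction of -0.48 ± 0.10 (adjusted p = 0.0102), and was stable on both scales. The list does not hold all lysosomal genes. FUCA1 (-0.48), GM2A (-0.36) and ARSG (-0.46), outside it, were also called below, each in 18 of 19 alternatives. Calls of lysosomal genes outside the list were not counted in either direction.

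CXCL8, the neutrophil-attracting chemokine interleukin-8, had the largest interaction above expectation among genes of the naming rule, and its promoter is shown because it holds motifs of NF-kB and AP-1, whose gene lists follow. The 300 bases around its start site (RefSeq, GRCh38.p14, chr4:73740319-73740618, plus strand) hold GGAATTTCC, an NF-kB motif, at -91 to -83 and TGACTCA, an AP-1 motif, at -137 to -131 from the start, both in capitals.
CXCL8: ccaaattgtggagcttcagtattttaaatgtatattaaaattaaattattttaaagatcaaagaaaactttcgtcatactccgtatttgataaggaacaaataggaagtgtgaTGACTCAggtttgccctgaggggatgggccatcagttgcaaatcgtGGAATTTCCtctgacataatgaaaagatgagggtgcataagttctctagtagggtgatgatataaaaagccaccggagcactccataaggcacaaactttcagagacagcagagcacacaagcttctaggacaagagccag
On either strand, GGAATTTCC is in 0.461% and TGACTCA in 4.95% of the 35116 promoters of this length in the table. A match describes the letters and not binding.

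Each agent alone lowered CXCL8, and its level under both was not lower than under either. It was at 40.9, 42.5 and 41.98 CPM with DMSO, 15.02, 15.7 and 15.2 with EZH2i, 17.4, 20.2 and 18.8 with AKTi and 19.96, 22.7 and 17.6 with both. DMSO was highest, and the combination libraries overlapped those of AKTi and lay above those of EZH2i. The product of the falls would give 6.89 CPM, and the sum would give -7.68, below 0. The interaction was 1.55 ± 0.11 (adjusted p = 9.64e-08), and the departure was 27.8 ± 1.97 CPM (adjusted p = 3.11e-08). An additive expectation under 0 CPM was found for 39 genes, of which 4 were called on the CPM scale.

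Of 29 tested NF-kB and chemokine genes, 5 lay above the multiplicative expectation and 0 below, against 0.526% and 1.06% of all genes. The list's median interaction was 0.12. Besides CXCL8 the called genes were the NF-kB subunits RELB and NFKB2, and BIRC3 and TRAF1, which act in TNF receptor signalling. RELB was at 40.2, 37.7 and 41.7 CPM with DMSO, 29.5, 28.04 and 28.7 with EZH2i, 43.6, 41.99 and 38.2 with AKTi and 45.1, 49.9 and 42.03 with both. EZH2i alone was lowest with no overlap, whereas the combination libraries overlapped AKTi and lay above every DMSO library. The interaction was 0.62 ± 0.10 (adjusted p = 0.00128) and the departure 15.6 ± 2.62 CPM (adjusted p = 0.00128). BIRC3, too, was lowest under EZH2i alone, at 12.1, 6.44, 13.4 and 11.8 CPM in group order, with an interaction of 0.71. NFKB2 was at 48.2, 42.9, 56.4 and 63.98 CPM (0.35) and TRAF1 at 12.1, 6.18, 8.12 and 6.94 CPM (0.75). CXCL8 and RELB were stable. The calls of the others were lost for BIRC3 without 1 of EZH2i B or AKTi A (adjusted p = 0.0551), NFKB2 without any 1 library except DMSO B, EZH2i A, EZH2i+AKTi B and EZH2i+AKTi C (adjusted p = 0.0606 to 0.133) and TRAF1 without any 1 library except EZH2i A, AKTi C, EZH2i+AKTi B and EZH2i+AKTi C (adjusted p = 0.0628 to 0.116).

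**Figure D4:**
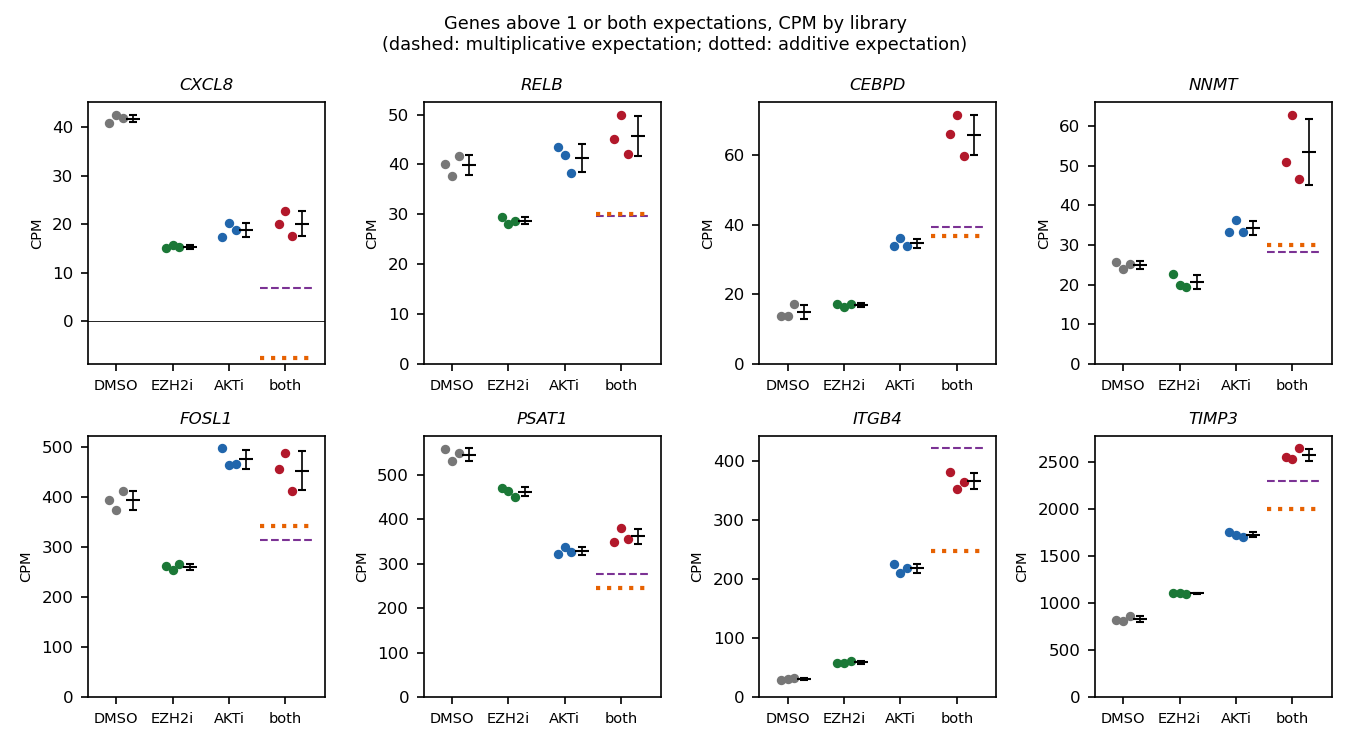
CPM in each library (points) with mean and SD of 3 (black) for 8 genes above 1 or both expectations, by treatment. The dashed line is the multiplicative and the dotted line the additive expectation for both agents. ITGB4 exceeded the sum but not the product, TIMP3 lay above both lines with a call on the CPM scale only, and the other 6 lay above both.

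Output genes of the ERK pathway, the kinase cascade downstream of RAS, were called in 1 direction only: 6 of 31 tested lay above the multiplicative expectation and 0 below, and 14 lay above the additive expectation and 0 below. All genes tested had 0.526% above the product and 1.37% above the sum. The list's median interaction was 0.15. FOSL1, an AP-1 subunit, was at 395, 373 and 412 CPM with DMSO, 262, 254 and 266 with EZH2i, 497, 464 and 466 with AKTi and 457, 489 and 413 with both. EZH2i lowered it and AKTi raised it, and the combination overlapped AKTi and lay above every DMSO and EZH2i library. The interaction was 0.52 ± 0.08 (adjusted p = 0.00127). ETV4, an ETS factor, was at 27.2, 26.6 and 30.8 CPM with DMSO, 29.1, 28.6 and 29.3 with EZH2i, 59.4, 56.2 and 57.1 with AKTi and 82.4, 85.3 and 75.8 with both. The EZH2i and DMSO libraries overlapped, and every combination library exceeded every AKTi library, for an interaction of 0.46 ± 0.09 (adjusted p = 0.00895).

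SPRY2 and IER3, feedback and stress genes induced by ERK, were raised by AKTi, not past the test by EZH2i, and were highest under both with no overlap. SPRY2 was at 10.2, 11.3, 30.3 and 44.4 CPM and IER3 at 106, 115, 213 and 293 CPM in group order, with interactions of 0.40 and 0.34 and departures of 13.04 ± 1.64 CPM (adjusted p = 8e-05) and 71.2 ± 10.7 CPM (adjusted p = 0.000462). JUN, at 108, 70.7, 108 and 91.6 CPM, and the ephrin receptor EPHA2, at 162, 118, 179 and 165 CPM, were lowered by EZH2i alone and lay above it under both in every library, with interactions of 0.38 and 0.34. FOSL1, ETV4 and JUN were stable on the log2 scale, and ETV4, FOSL1, IER3, SPRY1 and SPRY2 on the CPM scale. The log2 calls of the others were lost for SPRY2 without any 1 library except DMSO A, EZH2i A, EZH2i+AKTi B and EZH2i+AKTi C (adjusted p = 0.0506 to 0.0984), IER3 without any 1 library except DMSO B, EZH2i A, AKTi A, EZH2i+AKTi B and EZH2i+AKTi C (adjusted p = 0.0513 to 0.125) and EPHA2 without 1 of EZH2i B or EZH2i+AKTi A (adjusted p = 0.0507 to 0.0527). Replicate B of EZH2i+AKTi was the highest of its group for FOSL1, RELB and CXCL8, and it also had the highest ribosomal protein share, 9.79%. The interactions without it were recomputed and stayed called for these 3 genes.

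The amino acid response acts through C/EBP-ATF motifs, and the promoter of CHAC1, a glutathione-degrading enzyme of that response, is shown for the motif it holds. The 300 bases (RefSeq, GRCh38.p14, chr15:40953221-40953520, plus strand) hold TTGCATCA at -209 to -202, in capitals.
CHAC1: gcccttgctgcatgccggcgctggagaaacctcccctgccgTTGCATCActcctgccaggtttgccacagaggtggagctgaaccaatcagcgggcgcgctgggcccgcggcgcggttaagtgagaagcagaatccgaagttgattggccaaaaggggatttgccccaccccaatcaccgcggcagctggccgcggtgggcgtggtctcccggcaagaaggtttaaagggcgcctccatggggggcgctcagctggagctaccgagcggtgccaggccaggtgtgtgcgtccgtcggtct
On either strand TTGCATCA is in 0.866% of the 35116 promoters.

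ATF4 is the transcription factor that induces amino acid synthesis and transport under stress. Of 28 tested ATF4 response and serine synthesis genes, 6 lay above the multiplicative expectation and 0 below, against 0.526% and 1.06% of all genes. The list's median interaction was 0.23, the highest of the 25 lists. Serine synthesis was represented by PSAT1, a transaminase, and PHGDH, which catalyses the first step. PSAT1 was at 558, 530.3 and 548 CPM with DMSO, 470.3, 464 and 451 with EZH2i, 322, 338 and 326 with AKTi and 349, 380.3 and 355 with both. Both agents lowered it, and under both it was above AKTi in every library instead of below. The interaction was 0.38 ± 0.07 (adjusted p = 0.00338) and the departure 116 ± 19.7 CPM (adjusted p = 0.00143). PHGDH was at 915, 868 and 957 CPM with DMSO, 1056, 1021 and 1009.5 with EZH2i, 726, 717 and 676 with AKTi and 994, 1070.4 and 956 with both. AKTi alone was lowest, and the combination overlapped EZH2i and DMSO. Its interaction was 0.34 ± 0.07, and its departure of 185 ± 47.5 CPM was among the 6 largest of called genes.

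TRIB3, a pseudokinase that binds AKT, was at 105, 93.7 and 101 CPM with DMSO, 79.4, 74.3 and 75.6 with EZH2i, 81.2, 79.2 and 80.6 with AKTi and 85.4, 94.7 and 85.5 with both. Each agent lowered it below DMSO, and every combination library lay above every single-agent library. The interaction was 0.53 ± 0.08 (adjusted p = 0.00086). MTHFD2, a mitochondrial enzyme of one-carbon metabolism, was at 239.8, 197, 166 and 177 CPM in group order (0.38), SESN2, a leucine sensor, at 69.7, 52.7, 50.03 and 49.3 CPM (0.38), and CHAC1 at 23.2, 22.9, 11.7 and 17.6 CPM (0.62). ATF4 itself was raised by AKTi and more under both, at 386, 358 and 356 CPM with DMSO, 342, 354 and 351 with EZH2i, 612, 593 and 597 with AKTi and 683, 773 and 659 with both. Its departure was 122 ± 28.2 CPM (adjusted p = 0.0186), and its interaction of 0.30 ± 0.08 missed the threshold (adjusted p = 0.0532). Replicate B was the highest of the EZH2i+AKTi libraries for ATF4, TRIB3, PSAT1, PHGDH, MTHFD2 and CHAC1. PSAT1, TRIB3 and MTHFD2 were stable. The other log2 calls were lost for CHAC1 without any 1 library except EZH2i A, AKTi C, EZH2i+AKTi B and EZH2i+AKTi C (adjusted p = 0.0529 to 0.0914), PHGDH without any 1 library except DMSO B, EZH2i A, AKTi A, EZH2i+AKTi B and EZH2i+AKTi C (adjusted p = 0.0512 to 0.0856) and SESN2 without any 1 library except DMSO A, EZH2i A, AKTi C, EZH2i+AKTi B and EZH2i+AKTi C (adjusted p = 0.0511 to 0.0831), and the departure of ATF4 was lost without 1 of AKTi B or AKTi C (adjusted p = 0.0621 to 0.0694) and that of PHGDH without any 1 library except DMSO B, EZH2i A, EZH2i+AKTi B and EZH2i+AKTi C (adjusted p = 0.0523 to 0.123).

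CEBPD and NNMT rose more under both agents than either expectation. CEBPD, the C/EBP delta transcription factor, was at 13.7, 13.9 and 17.2 CPM with DMSO, 17.3, 16.3 and 17.3 with EZH2i, 34.1, 36.3 and 33.8 with AKTi and 66.1, 71.6 and 59.96 with both. The combination libraries stood above all others with no overlap, and EZH2i alone had not moved it past the test. The interaction was 0.74 ± 0.11 (adjusted p = 0.00127). NNMT, nicotinamide N-methyltransferase, was at 25.7, 23.9 and 25.3 CPM with DMSO, 22.7, 19.9 and 19.4 with EZH2i, 33.4, 36.4 and 33.2 with AKTi and 51.1, 62.8 and 46.7 with both. It was lowered by EZH2i and raised by AKTi, and again highest under both, with replicate B at the top. The interaction was 0.92 ± 0.13 (adjusted p = 0.000824) and the departure 23.6 ± 3.09 CPM (adjusted p = 0.000209). Both genes were stable on both scales.

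The remaining called genes with the largest interactions were NT5E, JAM3, FAM222A, PLAT and MAL2, with means under 20 CPM. NT5E, the ecto-enzyme CD73 that makes adenosine, was at 2.51, 2.61 and 2.06 CPM with DMSO, 1.31, 1.60 and 1.97 with EZH2i, 3.99, 3.65 and 3.60 with AKTi and 5.21, 5.36 and 5.35 with both. EZH2i lowered and AKTi raised it, and the combination was highest without overlap, for an interaction of 1.05 ± 0.21. JAM3, a junctional adhesion molecule, shows the gap between the scales. It was at 2.77, 2.08 and 2.00 CPM with DMSO, 17.6, 16.4 and 17.3 with EZH2i, 1.31, 0.86 and 0.934 with AKTi and 15.1, 17.3 and 14.9 with both. Its interaction was 1.02 ± 0.20 (adjusted p = 0.0102), lost without AKTi B (adjusted p = 0.057), while its departure was -0.0518 ± 1.14 CPM and had no fixed sign over the alternatives (-0.43 to 0.344 CPM). MAL2, a membrane-traffic protein of epithelia, was at 4.19, 12.9, 3.73 and 18.9 CPM in group order (0.71), FAM222A at 6.75, 7.63, 1.91 and 3.81 CPM (0.82) and PLAT, tissue plasminogen activator, at 7.42, 5.81, 5.86 and 7.70 CPM (0.75). Their calls were lost for MAL2 without 1 of DMSO B, EZH2i B, AKTi A, AKTi C or EZH2i+AKTi A (adjusted p = 0.0512 to 0.066), FAM222A without 1 of DMSO C, EZH2i B, EZH2i C, AKTi A, AKTi B or EZH2i+AKTi A (adjusted p = 0.0617 to 0.108) and PLAT without 1 of DMSO A, DMSO C, EZH2i B, AKTi A, AKTi B or EZH2i+AKTi A (adjusted p = 0.0609 to 0.12).

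Interferon-stimulated genes were called above the expectation on both scales, and mostly on the CPM scale: 9 of 41 tested lay above the additive expectation, 2 above the multiplicative one (ISG15 and OAS3), and 0 below either. Their median interaction was 0.08. Over all genes tested, 1.37% lay above the sum and 0.526% above the product. The list's median log2 change was 0.47 under EZH2i and 0.45 under AKTi. Of the 1341 genes called higher under each agent, 77 lay above the sum. A gene that both agents raise and that sits on the product exceeds the sum, so the CPM calls follow partly from this. The promoter of ISG15, a ubiquitin-like modifier, is shown for its interferon response motif. The 300 bases (RefSeq, GRCh38.p14, chr1:1013247-1013546, plus strand) hold GAAA, any 2 bases and GAAA at -113 to -104 and, overlapping it, at -107 to -98, in capitals.
ISG15: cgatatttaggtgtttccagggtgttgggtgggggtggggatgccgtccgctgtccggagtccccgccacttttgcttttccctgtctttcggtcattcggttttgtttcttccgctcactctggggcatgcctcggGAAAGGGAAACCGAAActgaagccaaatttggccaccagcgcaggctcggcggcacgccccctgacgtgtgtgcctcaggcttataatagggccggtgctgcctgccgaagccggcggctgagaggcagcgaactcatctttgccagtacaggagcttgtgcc
The motif is in 3.57% of the 35116 promoters on either strand.

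ISG15 was at 63.7, 56.6 and 63.6 CPM with DMSO, 74.9, 72.2 and 73.1 with EZH2i, 59.5, 58.4 and 56.95 with AKTi and 93.1, 110.1 and 87.1 with both. Under both agents it exceeded every other library, the AKTi and DMSO libraries overlapped, and replicate B was the highest. The interaction was 0.47 ± 0.10 (adjusted p = 0.0148) and the departure 26.5 ± 5.02 CPM (adjusted p = 0.00421). MX1, an antiviral GTPase, was at 22.4, 19.8 and 17.8 CPM with DMSO, 48.5, 42.1 and 50.1 with EZH2i, 58.6, 46.8 and 50.4 with AKTi and 126, 109 and 116 with both. The product would give 122 CPM and the sum 78.8, with a departure of 38.1 ± 6.18 CPM (adjusted p = 0.00245) and an interaction of -0.06 ± 0.14 (95% interval -0.35 to 0.23) without a fixed sign over the alternatives. IFIT1, an antiviral RNA-binding protein, was at 9.48, 20.2, 26.7 and 52.1 CPM in group order, OAS1, which makes the second messenger of RNase L, at 1.60, 2.78, 3.88 and 9.63 CPM, and IFIH1, the RNA sensor MDA5, at 10.4, 15.1, 20.1 and 31.4 CPM. Their departures were 14.7, 4.56 and 6.57 CPM, and their log2 interactions were not called. CMPK2, IFIH1, ISG15, MX1, OAS1 and OAS2 were stable on the CPM scale and no member on the log2 scale. OAS3 was at 52.8, 60.8, 30.2 and 52.7 CPM (0.59). Log2 calls were lost for ISG15 without 1 of DMSO A, DMSO C or EZH2i B (adjusted p = 0.052 to 0.0551) and OAS3 without any 1 library except DMSO C, EZH2i A, AKTi C, EZH2i+AKTi B and EZH2i+AKTi C (adjusted p = 0.0504 to 0.0964), and the departure of IFIT1 without EZH2i+AKTi A (adjusted p = 0.07).

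The called mitotic genes fell under AKTi and lay higher, still below DMSO, when EZH2i was present. Of 40 tested G2/M genes 4 lay above the multiplicative expectation and 0 below, against 0.526% and 1.06% of all genes. A positive interaction was found for 37 (42.2% of all genes had one), and the median was 0.15. CDC20, the activator of the anaphase-promoting complex, was at 295, 288 and 288 CPM with DMSO, 291, 298 and 289 with EZH2i, 177, 177 and 175 with AKTi and 223, 231 and 223 with both. The combination stood between AKTi and the EZH2i and DMSO groups with no overlap. The interaction was 0.34 ± 0.06 (adjusted p = 0.00309), and CDC20 was stable on that scale. PLK1 (269, 276, 169 and 208 CPM in group order), AURKA (104, 96.5, 62.5 and 71.4 CPM), both mitotic kinases, and CDCA8 (63.4, 58.4, 44.3 and 50.2 CPM), a subunit of the chromosomal passenger complex, had interactions of 0.27, 0.30 and 0.30. Those calls were lost for PLK1 without any 1 library except DMSO B, EZH2i A, EZH2i+AKTi B and EZH2i+AKTi C (adjusted p = 0.0554 to 0.111), AURKA without any 1 library except DMSO C, EZH2i A, EZH2i+AKTi B and EZH2i+AKTi C (adjusted p = 0.0601 to 0.0998) and CDCA8 without any 1 library except EZH2i A, EZH2i+AKTi B and EZH2i+AKTi C and with a replicate block (adjusted p = 0.0646 to 0.13).

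Of 46 tested G1/S and replication genes 1 was called, MYBL2, a cell-cycle transcription factor. MYBL2 was at 378, 368 and 388 CPM with DMSO, 390.0, 388 and 369 with EZH2i, 97.9, 89.4 and 97.4 with AKTi and 119, 123 and 114 with both. AKTi was lowest, and the combination lay slightly higher without overlap, for an interaction of 0.31 ± 0.07 (adjusted p = 0.0229). That call was lost for MYBL2 without 1 of DMSO A, DMSO C, EZH2i B, EZH2i C, AKTi B or EZH2i+AKTi A (adjusted p = 0.0542 to 0.099). MCM6, a subunit of the replicative helicase, fell from 160.0 CPM under DMSO to 51.00 under AKTi and 38.8 under both, with an interaction of -0.18 ± 0.07 (adjusted p = 0.24). CDKN1C, the CDK inhibitor p57, was at 0.688, 2.85, 2.47 and 6.17 CPM in group order. Its interaction of -0.72 ± 0.24 (interval -1.22 to -0.21) did not pass (adjusted p = 0.167).

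On the CPM scale the 6 largest departures above the sum, among called genes of the naming rule, belonged to TIMP3, PHGDH, CAVIN1, IRAK1, ECE1 and ATF4. TIMP3, an inhibitor of matrix metalloproteinases, was at 818, 814 and 866 CPM with DMSO, 1112, 1111 and 1104 with EZH2i, 1765, 1728 and 1707 with AKTi and 2562, 2532 and 2649 with both. The combination was highest with no overlap, 572 ± 75.2 CPM above the sum (adjusted p = 0.000129), and its interaction was 0.16 ± 0.06 (adjusted p = 0.259). ITGB4, the beta 4 integrin of hemidesmosomes, was at 28.9, 31.7 and 32.1 CPM with DMSO, 58.7, 57.9 and 62.2 with EZH2i, 226, 210.4 and 218 with AKTi and 381, 353 and 364 with both. It exceeded the sum by 119 ± 10.6 CPM (adjusted p = 6.71e-07) and lay under the product, 421 CPM, without passing the test (interaction -0.20 ± 0.07, adjusted p = 0.222). FST, follistatin, which binds activins, was at 0.66, 1.01 and 0.576 CPM with DMSO, 9.82, 10.2 and 9.50 with EZH2i, 2.24, 2.40 and 1.81 with AKTi and 23.4, 24.8 and 21.9 with both. Its departure was 12.2 ± 1.17 CPM (adjusted p = 1.56e-06), and the product would give 28.5 CPM (interaction -0.28 ± 0.22, 95% interval -0.73 to 0.17). All 3 were stable on the CPM scale.

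CAVIN1, a structural protein of caveolae, was at 929, 711, 1027 and 969.8 CPM in group order, with a departure of 161 ± 41.3 CPM. IRAK1, a kinase of interleukin-1 signalling, fell under each agent, to 734 and 563 CPM from 921, and stood at 532 under both, 156 ± 36.5 above the sum. ECE1, which processes endothelin, was at 612, 621, 667 and 806 CPM with a departure of 130.5 ± 31.3 CPM. The CPM calls were lost for CAVIN1 without any 1 library except DMSO A, EZH2i A, AKTi A, EZH2i+AKTi B and EZH2i+AKTi C (adjusted p = 0.0742 to 0.123), IRAK1 without 1 of DMSO B, DMSO C, EZH2i B, EZH2i C or AKTi B (adjusted p = 0.0626 to 0.0971) and ECE1 without any 1 library except DMSO A, EZH2i A, EZH2i C, EZH2i+AKTi B and EZH2i+AKTi C (adjusted p = 0.0545 to 0.0979).

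Among called genes of the naming rule, the 6 largest shortfalls from the sum were those of SCD, TIMP2, CYP1B1, AKR1B10, YWHAZ and ABCC1. SCD, the desaturase that makes oleate, was at 1568, 1587 and 1605 CPM with DMSO, 1927, 1949 and 1972 with EZH2i, 962, 951 and 945 with AKTi and 1019, 964 and 1098 with both. EZH2i raised it and AKTi lowered it, and the combination libraries all lay above those of AKTi and below those of DMSO, -288 ± 68.6 CPM from the sum (adjusted p = 0.0236). AKR1B10, an aldo-keto reductase, had the same pattern at 573, 783, 325 and 385 CPM in group order, with a departure of -149.9 ± 25.9 CPM (adjusted p = 0.00171). TIMP2, another metalloproteinase inhibitor, was at 762, 759 and 751 CPM with DMSO, 699.8, 689 and 688 with EZH2i, 1314, 1346 and 1337 with AKTi and 1056, 1017 and 1015 with both. The combination lay between DMSO and AKTi without overlap, and the departure was -238 ± 41.1 CPM (adjusted p = 0.00171). YWHAZ, the 14-3-3 zeta adaptor, was at 641, 760.4, 694 and 683 CPM, with a departure of -130.3 ± 30.5 CPM. ABCC1, a drug efflux pump, was at 387, 359, 462 and 346 CPM, with -87.6 ± 21.00 CPM. TIMP2, AKR1B10 and CYP1B1 were stable on the CPM scale. The calls of the others were lost for SCD without any 1 library except DMSO C, AKTi C and EZH2i+AKTi C and with RLE scaling and with the AKTi C reference (adjusted p = 0.0536 to 0.169), YWHAZ without any 1 library except DMSO A, EZH2i+AKTi B and EZH2i+AKTi C and with RLE scaling and with the AKTi C reference (adjusted p = 0.0512 to 0.222) and ABCC1 without any 1 library except DMSO A, DMSO B, AKTi B and EZH2i+AKTi C and with RLE scaling and with the AKTi C reference (adjusted p = 0.0557 to 0.0965). Without EZH2i+AKTi replicate B the departure was -174 CPM for SCD and -52.7 CPM for ABCC1.

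SCD and 2 other fatty acid synthesis genes fell short of the sum. Of 20 tested, 3 (SCD, ELOVL6 and FADS1) lay below the sum, 2 of these (ELOVL6 and FADS1) also below the product, and 0 above either; 17 of 20 interactions were negative, against 57.8% of all genes, with a median of -0.13. With RLE and with the AKTi C reference 14 of 20 were negative. Over all genes tested, 1.62% lay below the sum and 1.06% below the product. FADS1, a desaturase of polyunsaturated fatty acids, was at 260.2, 267 and 266 CPM with DMSO, 359, 346 and 344 with EZH2i, 142, 139.6 and 135 with AKTi and 146, 146 and 156 with both. EZH2i alone was highest, and the combination lay above AKTi and below DMSO. The departure was -74.7 ± 10.6 CPM (adjusted p = 0.00025) and the interaction -0.30 ± 0.06. ELOVL6, a fatty acid elongase, was at 29.6, 36.9, 22.4 and 20.7 CPM in group order, with an interaction of -0.44 ± 0.09. ELOVL6 and FADS1 were stable on the CPM scale. On the log2 scale calls were lost for ELOVL6 without 1 of EZH2i A, EZH2i B, EZH2i C or AKTi B (adjusted p = 0.0551 to 0.0649) and FADS1 without any 1 library except DMSO B, DMSO C, EZH2i C, AKTi C and EZH2i+AKTi C and with RLE scaling and with the AKTi C reference (adjusted p = 0.052 to 0.227). Cholesterol synthesis genes had 0 log2 calls in 25, with a median of 0.10.

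Of 55 tested developmental regulators listed as Polycomb targets, 1 (IRX3) lay below the multiplicative expectation and 0 above, with a median of -0.11. Whether Polycomb silences them in HCC1395 was not tested. On the CPM scale 6 lay below the sum and 3 above, against 1.62% and 1.37% of all genes. Of these, 2 below (IRX3 and PCDH7) and 3 above (FST, SATB1 and ZIC2) were stable. IRX3, a homeobox factor, was at 61.4, 63.1 and 67.7 CPM with DMSO, 92.8, 90.7 and 99.6 with EZH2i, 49.6, 47.1 and 48.3 with AKTi and 56.5, 55.3 and 49.8 with both. EZH2i alone was highest, and the combination was between AKTi and DMSO. The interaction was -0.40 ± 0.08 (adjusted p = 0.0148), and was not called for IRX3 without 1 of DMSO A, EZH2i A, EZH2i C or AKTi A (adjusted p = 0.052 to 0.0798). PCDH7, a protocadherin, was at 0.132, 0.421 and 0.0823 CPM with DMSO, 7.99, 7.93 and 7.13 with EZH2i, 0.328, 0.0782 and 0.107 with AKTi and 2.84, 2.21 and 3.31 with both. It was near 0 without EZH2i, and the level under both lay below every EZH2i library, for a departure of -4.88 ± 0.817 CPM (adjusted p = 0.00208). SOX2, a pluripotency factor, was at 0.0792, 0.225 and 0.686 CPM with DMSO, 9.09, 9.74 and 9.05 with EZH2i, 0.328, 0.365 and 0.24 with AKTi and 5.36, 5.54 and 3.77 with both. Its departure was -4.34 ± 1.05 CPM (adjusted p = 0.0378), and its interaction of -0.84 ± 0.57 had an interval of -2.07 to 0.39, with all DMSO and AKTi libraries under 1 CPM.

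The CPM call was lost for SOX2 without any 1 library except DMSO A, DMSO C, EZH2i+AKTi B and EZH2i+AKTi C (adjusted p = 0.0551 to 0.172). SOX2 lies within SOX2-OT on the same strand, and reads of the pair cannot be told apart. CCND2, cyclin D2, rose from 0.502, 0.898 and 0.795 CPM under DMSO to 18.04, 18.9 and 18.8 under EZH2i, and was at 17.8, 17.5 and 15.6 under both. The combination libraries of CCND2 lay below those of EZH2i by a small margin, and its departure of -1.37 ± 1.08 CPM did not pass (adjusted p = 0.61). IGF2BP1, an oncofetal RNA-binding protein, was at 0.319, 7.91, 0.0944 and 5.49 CPM in group order. Its departure of -2.21 ± 0.572 CPM was called (adjusted p = 0.0378), but not for IGF2BP1 without any 1 library except DMSO B, AKTi C and EZH2i+AKTi C (adjusted p = 0.0504 to 0.156). HAND2, a bHLH factor, was at 1.20, 4.64, 0.694 and 2.32 CPM with -1.83 ± 0.434 CPM, lost for HAND2 without 1 of EZH2i A, EZH2i B, EZH2i C or EZH2i+AKTi A (adjusted p = 0.0627 to 0.144). For genes this low in DMSO the log2 interaction had wide errors, 0.64 for PCDH7 and 0.57 for SOX2, against a median of 0.14 over all genes.

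Of 28 tested basal and myoepithelial genes 2 lay above the product, ACTA2 and LAMB3, and 1 below, KRT15. ACTA2, smooth muscle actin, was at 13.2, 12.2 and 13.7 CPM with DMSO, 11.3, 9.57 and 9.72 with EZH2i, 8.88, 9.43 and 7.77 with AKTi and 11.2, 10.9 and 10.7 with both. Each agent lowered it, and the combination overlapped EZH2i and lay above AKTi, for an interaction of 0.70 ± 0.13 (adjusted p = 0.00608). LAMB3, a laminin chain, was at 95.7, 64.8, 154 and 132 CPM in group order, with 0.34 ± 0.06 (adjusted p = 0.00673). Among 26 epithelial junction genes the desmosomal cadherin DSC2 was the only log2 call, at 69.6, 97.5, 76.9 and 83.7 CPM with -0.36 ± 0.08, lost for DSC2 without any 1 library except DMSO B, DMSO C, AKTi C and EZH2i+AKTi C and with the AKTi C reference (adjusted p = 0.0625 to 0.08), and at -0.24 without EZH2i+AKTi B. ALDH1A3 was the only log2 call among 17 luminal genes, and it overlaps a gene on the opposite strand. So do ITGB4 (GALK1), TIMP3 (SYN3), FADS1 (FADS2), ETV4 (DHX8), JAM3 (NCAPD3), CYP1B1 (RMDN2), TSPAN18 (TP53I11), IFIT1 (LIPA), CSDC2 (PMM1) and ACTA2 (FAS and STAMBPL1), and without a stated strand setting the reads of such pairs cannot be told apart. The same holds for ST3GAL5, GREM1, EPHA2, IRX3, HAND2, DSC2 and PIK3IP1 with antisense or unnamed transcripts, and on the same strand for AHRR (PDCD6) and TIMP2 (CEP295NL).

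No log2 interaction was called in 9 lists: CDK inhibitors (5 tested), cholesterol synthesis (25), glycolysis (22), hypoxia (20), antigen presentation (27), ribosome biogenesis (38), ER chaperones (24), PRC2 and PRC1 subunits (31) and the mitochondrial genome (13). On the CPM scale these lists held HMGCS1 and BOP1 above the sum and STARD4 and EGLN3 below it. The 13 listed mitochondrial genes had the lowest median of the 25 lists, -0.18. Of these, 12 were negative (11 with RLE, 9 with the AKTi C reference), with 0 calls. MT-RNR2, a ribosomal RNA gene of the mitochondrial genome outside that list, was called below the product (-0.41). Its call was kept in 10 of 19 alternatives. At the median SE of 0.14, or 0.11 for genes of at least 2 CPM, and a smallest called interaction of 0.24, most smaller interactions were not detectable with this spread among 3 libraries a group.

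**Figure D5:**
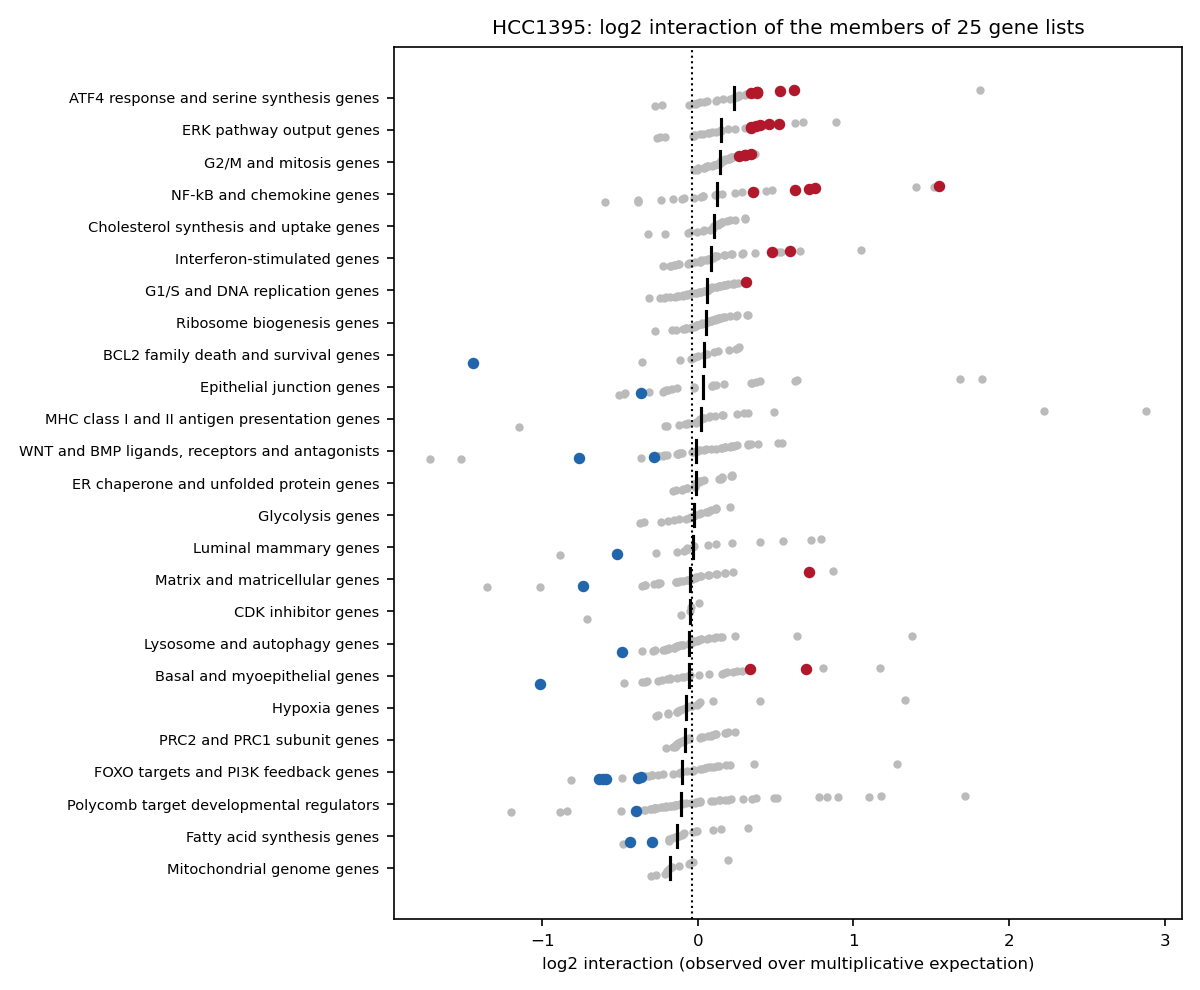
Log2 interaction (horizontal axis) of each tested member of 25 gene lists, with called members in red (above) or blue (below), others in grey and the list median as a black bar. The dotted line is the median of all genes, -0.04; list medians run from -0.18 (mitochondrial genome) to 0.23 (ATF4 response).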

How the data were processed

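RNA of 12 HCC1395 libraries (4 groups of 3) was analysed from raw gene counts as deposited, 1 file per library with 58735 entries. The submitters' processing notes name fastp, HISAT2 2.0.5, DESeq2 and the build hg38, without roles. For the counter, the annotation release and strandedness, nothing is given in the sources used here. The kit described can make directional or non-directional libraries. Of 57167 distinct symbols, 57142 matched GENCODE 29, which gave gene types, positions and overlaps, and 27 entries carry date-like symbols. The deposited normalized tables were not used, and their 12 columns for this line were not mapped to samples because their names carry another line's name.

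Counts were filtered with edgeR 4.0.16 (filterByExpr, minimum count 10) and scaled by TMM in R 4.3.3. The interaction was the contrast (EZH2i+AKTi minus EZH2i) minus (AKTi minus DMSO) in edgeR's quasi-likelihood test (robust) on all 12 libraries with group means and no block. The CPM departure came from the fitted group means with delta-method errors and a Wald test on the moderated degrees of freedom (8 residual). Adjusted p-values are Benjamini-Hochberg over 18074 genes, two-sided, and ± after an interaction or departure is an SE. Alternatives were RLE scaling, no filter, a stricter filter (1 CPM in 3 libraries), DESeq2 1.42.0, limma 3.58.1 on unlogged CPM, library-total scaling, a replicate block, removal of mitochondrial genes, another TMM reference and each library left out. On simulated counts the log2 test recovered 62.7, 80.6 and 98.5% of genes changed 1.5-, 2- and 4-fold. It made 20 false calls among 181 over 17780 genes. The CPM test recovered 61.2, 86.6 and 97%, with 21 false among 186 calls over 17785 genes. On both scales the share of false calls exceeded the adjusted p threshold of 0.05. The real EZH2i+AKTi libraries differed from each other more than those of other groups. Recovery and false calls on simulated counts may therefore not carry over to the real libraries.

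Named genes were, among protein-coding genes averaging 2 CPM or more, the 10 called with the largest and the 10 with the smallest interaction, the 6 with the largest and the 6 with the smallest departure, the 2 members of each of 25 lists with the smallest p, and a panel of genes. A gene that this rule names is not reported here. Other called list members, CXCL12, AHRR and the synthetases were named after their values were seen. Members and lists were chosen with earlier results of these data known. Promoters are RefSeq's (GRCh38.p14), 250 bases before to 50 after the start. Shares beside a printed promoter are over all 35116 in the table, both strands. Shares beside counts of called genes are over the 11643 tested genes with a listed promoter.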

Additional observations from a re-analysis of the deposited data

How the results depend on the processing

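Counts of calls moved with the scaling and with single libraries. For the log2 interaction, RLE scaling gave 146 genes above and 125 below, no low-count filter 219 above, DESeq2 477 in all with 280 above, and the AKTi C reference, added after seeing the data, 248 above and 110 below. For the CPM departure, no filter gave 433 above and the AKTi C reference 487. Leaving out each library in turn, the log2 calls ran from 127 to 1022, with 38 to 485 above and 64 to 656 below. The CPM calls ran from 286 to 1342, with 134 to 786 above and 123 to 797 below. The most calls came without EZH2i+AKTi replicate C and the fewest without EZH2i replicate B, and the cause was not tested. With a replicate block 247 genes were called on the log2 scale (84 above, 163 below). On the CPM scale limma called 613 genes with the block and 680 without it. No shared effect of the library letters was seen. Of 18 same-letter pairs 0 had a correlation over 0.1. The same letter gave 11 of 36 best matches, each among 3 libraries. With 3 libraries a group this cannot show whether a letter marks a shared culture or batch. The interaction of MX1 turned to 0.012 with the AKTi C reference and ran from -0.14 to 0.076 without single libraries. The departure of BMF turned to 0.464 CPM with that reference and ran from -2.61 to 4.22 CPM. The departure of JAM3 turned to 0.0148 CPM with RLE, 0.0437 without a filter, 0.0454 with a stricter filter and 0.206 with that reference, and ran from -0.43 to 0.344 CPM. For called genes named in the text, 1050 values of the interaction and 1258 of the departure under alternatives kept direction and call, 261 and 162 lost the call, and none of these turned direction. Depth limits genes under about 1 CPM in DMSO, where the expectations rest on few counts.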

Other observations

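Cytosolic aminoacyl-tRNA synthetases, which charge tRNAs and belong to the ATF4 programme, were examined after the values of AARS and WARS were seen. Of 20 tested, 5 (AARS, CARS, MARS, SARS and WARS) lay above the multiplicative expectation and 0 below, against 0.526% and 1.06% of all genes. Positive interactions numbered 15, and the median was 0.12 against -0.04 over all genes. AARS, for alanine, was at 581, 574 and 582 CPM with DMSO, 484, 493 and 474 with EZH2i, 445, 438 and 439.9 with AKTi and 459.7, 444 and 459 with both. Each agent lowered it, and the combination overlapped AKTi instead of falling below it. The interaction was 0.30 ± 0.06 (edgeR's quasi-likelihood test, adjusted p = 0.0102) and the departure 108 ± 20.3 CPM (adjusted p = 0.00379). CARS, for cysteine, was at 71.9, 61.2, 65.4 and 70.2 CPM under DMSO, EZH2i, AKTi and both, and WARS, for tryptophan, at 256, 219, 202 and 211 CPM, with interactions of 0.34 and 0.28. The log2 call of AARS was kept in all 19 alternatives. Calls were lost for CARS without 1 of DMSO C, EZH2i B or AKTi B (adjusted p = 0.0544 to 0.0699), WARS without 1 of DMSO A, EZH2i B, EZH2i C, AKTi B or AKTi C (adjusted p = 0.0632 to 0.0815), MARS without any 1 library except EZH2i A, EZH2i+AKTi B and EZH2i+AKTi C and with a replicate block (adjusted p = 0.062 to 0.153) and SARS without any 1 library except EZH2i A, EZH2i+AKTi B and EZH2i+AKTi C (adjusted p = 0.057 to 0.123).

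KRT5, a basal keratin, and WNT7B, a WNT ligand, were raised by EZH2i, lowered by AKTi and fell short of the sum under both, and WNT7B was named after its values were seen. KRT5 was at 6.89, 6.01 and 5.90 CPM with DMSO, 14.8, 12.5 and 12.6 with EZH2i, 2.50, 2.53 and 2.35 with AKTi and 4.53, 4.57 and 4.77 with both. WNT7B was at 8.71, 9.12 and 9.54 CPM with DMSO, 33.7, 34.2 and 34.2 with EZH2i, 4.87, 4.59 and 5.58 with AKTi and 22.8, 20.8 and 21.5 with both. In both genes AKTi was lowest and EZH2i highest, with no overlap between groups. The combination lay below DMSO for KRT5 and above it for WNT7B. Their departures were -4.86 ± 0.735 CPM (adjusted p = 0.000493) and -8.23 ± 1.40 CPM (adjusted p = 0.00152), called in all 20 alternatives, while the log2 interactions were -0.18 ± 0.15 (adjusted p = 0.697) and 0.22 ± 0.11 (adjusted p = 0.411).

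Motif matches in promoters were counted for called genes that the RefSeq table lists, 66 above and 138 below the multiplicative expectation. GGAATTTCC was in 2 and 3 of them, TGACTCA in 4 and 10, and TTGCATCA in 2 and 3. The interferon motif (GAAA, any 2 bases, GAAA) was in 6 and 7, and GTAAACA, a FOXO motif, in 6 and 12. Of 11643 tested genes with a listed promoter, 0.593, 5.2, 0.721, 3.94 and 3.51% held these motifs, in that order. A gene was counted if any of its promoters held the motif. Differences from these shares were not tested.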
